A study of Mus musculus with 4 samples.

Results

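The alveolar type 1 cell genes examined here were the 10 rows of the table with the symbols Pdpn, Aqp5, Ager, Hopx, Akap5, Clic5, Rtkn2, Emp2, Vegfa and Cav1. All 10 symbols were found among the 22556 genes of the table. The rule used the symbols and no threshold on a value, although the genes were picked with earlier results of these data known. The values are FPKM, that is, read numbers scaled to transcript length and library size, from RNA-seq of whole E16.5 mouse lung. Control embryos had the genotype Shh-Cre; Stk11F/+, with 1 floxed and 1 intact Stk11 allele, and Shh-Stk11 embryos had the genotype Shh-Cre; Stk11F/F, with both alleles floxed. All embryos therefore carried Shh-Cre, which recombines in the endoderm that gives rise to the lung epithelium, and no group lacked Cre. Each group held 2 libraries, called Control 1, Control 2, Shh-Stk11 1 and Shh-Stk11 2. The labels gave C57BL/6 as the strain, while the methods of the study described a mixed background.

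Alveolar type 1 cells are the thin, flat epithelial cells that cover most of the gas exchange surface of the lung. They arise from distal progenitors late in gestation, alongside the cuboidal alveolar type 2 cells that make surfactant. At E16.5 the mouse lung passes from branching to the formation of saccules, and both cell types are beginning to differentiate. Their known markers are surface proteins (podoplanin, the water channel aquaporin 5, the receptor RAGE), the nuclear protein HOPX, scaffold, cytoskeletal and membrane proteins (AKAP5, CLIC5, rhotekin 2, EMP2), the growth factor VEGF-A and the caveola protein caveolin 1. Several are also made by other lung cells, such as podoplanin by mesothelium and lymphatic endothelium and caveolin 1 by blood endothelium. In whole lung, fewer alveolar type 1 cells and less RNA per cell cannot be told apart.

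The libraries corresponded to between 30.9 M and 38.13 M reads, as estimated from the spacing of the lowest values. Stk11 itself was at 43.99 and 45.5 FPKM in Control and at 29.5 and 26.0 FPKM in Shh-Stk11 libraries (limma adjusted p = 0.0499). Only Shh-Stk11 2 expressed the Y-linked gene Ddx3y, with 23.5 FPKM against no more than 0.0285 FPKM in any of the others, so that sex was not matched between the groups. Of the 22556 genes, 13770 had a mean of at least 0.5 FPKM and were tested, including all 10 members.

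Of the 10 alveolar type 1 genes, Pdpn alone passed the threshold, an adjusted p of 0.05 in limma, and it fell. Across all tested genes 1.29% were lower and 0.980% higher at that threshold. By the sign of the log2 fold change, 8 members were lower and 2 higher in Shh-Stk11 than in Control lungs, with a median of -0.42, and with quantile normalization Akap5 changed sides. The median was -0.21 without Control 1, -0.16 without Shh-Stk11 1, and -0.63 without either Control 2 or Shh-Stk11 2. Over all tested genes 58.3% were lower and the median was -0.05. At an unadjusted p under 0.05 in limma, 4 members (Pdpn, Rtkn2, Ager, Cav1) were lower, against 7.18% of all tested genes. At the same level 1 member, Aqp5, was higher, against 8.04% of all tested genes. The 2 Shh-Stk11 values lay below both Control values for 5 members (Pdpn, Ager, Hopx, Rtkn2, Cav1), as they did for 27.6% of all tested genes. They lay above both for Aqp5 alone among the members, and for 19.2% of all tested genes. With 2 libraries a group the smallest two-sided p of an exact permutation test is 0.333, and the tests therefore rest on the spread that limma pools across genes.

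On the FPKM scale, which is per length, the members spanned a wide range in Control lungs. Cav1 was highest, at a mean of 631 ± 85.5 FPKM (SD, n = 2), followed by Ager, Hopx and Emp2. The Control values of Cav1, Ager and Hopx overlapped, so that their order was within the spread. Vegfa, Clic5 and Pdpn came next, and the Control values of Clic5 overlapped those of both its neighbours. Akap5, Aqp5 and Rtkn2 were the lowest members, and did not overlap one another. In Shh-Stk11 lungs the order differed in its lower part, where Akap5 stood between Aqp5 above and Pdpn below. The values of Aqp5 and Akap5 overlapped there, and both lay above those of Pdpn. Those of Cav1, Ager, Hopx and Emp2 overlapped from each gene to the next. In every library Cav1 was the highest and Rtkn2 the lowest member. Even Rtkn2 in Shh-Stk11 1 rested on an estimated 413 reads, and Cav1 in Control 1 on 66858.

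**Figure D1:**
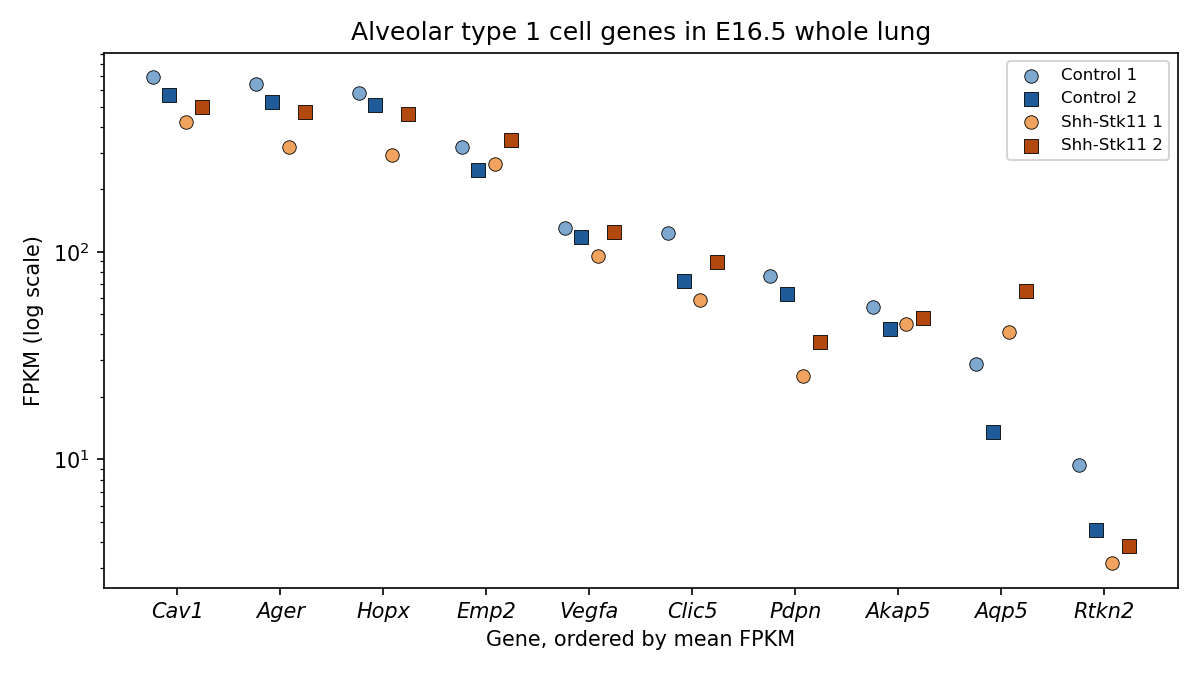
FPKM on a log axis of the 10 alveolar type 1 genes in each of the 4 libraries, ordered by mean level, with Control in blue, Shh-Stk11 in orange, circles for replicate 1 and squares for replicate 2. Pdpn lay lower in both Shh-Stk11 libraries (25.1 and 36.9 FPKM) than in both Control libraries (76.7 and 62.3 FPKM), Aqp5 lay higher, and the groups of Akap5, Clic5, Emp2 and Vegfa overlapped.

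Pdpn (chr4:143267431-143299564, minus strand, GRCm38) encodes podoplanin, the mucin-type glycoprotein of the apical membrane that is the classical marker of alveolar type 1 cells. Its level was 76.7 and 62.3 FPKM in Control 1 and 2, and 25.1 and 36.9 FPKM in Shh-Stk11 1 and 2. Both Control libraries were high and both Shh-Stk11 libraries low, with a gap between them. The mean fell from 69.5 ± 10.1 to 31.0 ± 8.36 FPKM (SD, n = 2), a log2 fold change of -1.18 (95% interval -1.68 to -0.68, limma adjusted p = 0.0464). The fold change was negative in each of 15 alternative fits, but the call was kept in 3 of them. Without Control 1, Control 2 or Shh-Stk11 1 the adjusted p was 0.222, 0.164 and 0.115, and without Shh-Stk11 2 it was 0.0291. With the replicate number as a block it was 0.169.

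None of the 7 tested partners of podoplanin passed the threshold in limma, and 2 were higher and 1 lower at an unadjusted p under 0.05. By sign 5 were higher and 2 lower (median 0.07). Clec1b, the platelet receptor that podoplanin engages, had means of 1.75 ± 0.262 and 0.973 ± 0.0512 FPKM (SD, n = 2) in Control and Shh-Stk11 (log2 fold change -0.78, limma adjusted p = 0.172). Ezr encodes ezrin, which links podoplanin to actin, and had a log2 fold change of 0.34 (limma adjusted p = 0.244). The podoplanin-binding hyaluronan receptor gene Cd44 had one of 0.42 (limma adjusted p = 0.214). For both genes each Shh-Stk11 value was above each Control value, the opposite side to Pdpn.

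The sequences just upstream of the members differed in base composition. They are shown for 3 members whose Shh-Stk11 values were all below Control (Pdpn, Ager, Hopx) and for 2 whose groups overlapped (Akap5, Emp2). Each is the 250 bases before the annotated start in RefSeq, build GRCm38.p6, written 5′ to 3′ on the strand of the gene. Capitals mark the GC box letters GGGCGG, or their reverse complement CCGCCC.
Pdpn, chr4:143299565-143299814, minus strand: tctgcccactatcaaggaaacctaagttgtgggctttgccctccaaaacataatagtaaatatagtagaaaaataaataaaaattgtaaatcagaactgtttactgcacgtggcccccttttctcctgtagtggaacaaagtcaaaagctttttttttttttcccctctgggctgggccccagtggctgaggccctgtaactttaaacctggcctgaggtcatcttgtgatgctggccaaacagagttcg
Ager, chr17:34597600-34597849, plus strand: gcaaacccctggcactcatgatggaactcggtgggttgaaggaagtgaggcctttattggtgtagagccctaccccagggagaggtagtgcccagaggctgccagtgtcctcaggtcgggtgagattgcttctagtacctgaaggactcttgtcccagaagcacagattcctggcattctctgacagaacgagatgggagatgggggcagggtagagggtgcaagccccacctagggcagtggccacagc
Hopx, chr5:77115124-77115373, minus strand: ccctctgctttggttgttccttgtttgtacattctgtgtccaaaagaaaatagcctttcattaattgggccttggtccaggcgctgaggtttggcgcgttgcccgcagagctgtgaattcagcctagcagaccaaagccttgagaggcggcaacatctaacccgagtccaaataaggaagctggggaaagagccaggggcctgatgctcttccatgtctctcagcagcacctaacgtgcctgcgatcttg
Akap5, chr12:76324641-76324890, plus strand: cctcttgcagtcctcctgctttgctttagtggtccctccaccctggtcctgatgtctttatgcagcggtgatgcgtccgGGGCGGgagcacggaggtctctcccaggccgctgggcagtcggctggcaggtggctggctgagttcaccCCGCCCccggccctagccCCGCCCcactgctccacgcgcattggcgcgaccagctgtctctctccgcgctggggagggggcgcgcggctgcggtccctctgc
Emp2, chr16:10313969-10314218, minus strand: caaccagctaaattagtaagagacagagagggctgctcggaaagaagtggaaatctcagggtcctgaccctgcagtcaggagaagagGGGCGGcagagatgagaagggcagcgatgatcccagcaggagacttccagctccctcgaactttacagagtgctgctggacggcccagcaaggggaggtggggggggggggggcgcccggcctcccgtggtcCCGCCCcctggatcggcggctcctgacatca
The Pdpn window held 2 CpG dinucleotides, the Ager window 3 and the Hopx window shown 8, and none of these held a GC box. The window of a second Hopx start, not shown since it overlaps exons, held 18 CpG and no GC box. The Akap5 window held 20 CpG and 3 GC boxes, and the Emp2 window 11 CpG and 2 GC boxes. The median over all 32851 windows of the RefSeq table was 6 CpG. Among the other members whose groups overlapped, the first Vegfa window held 2 GC boxes and 11 CpG and the Clic5 window 2 GC boxes and 13 CpG. The first Cav1 window, of a gene whose Shh-Stk11 values were both below Control, held 1 GC box and 10 CpG. The Aqp5 window, of a gene whose Shh-Stk11 values were both above Control, held 2 GC boxes and 38 CpG, the most of any member, and lies largely in an exon. A window was found for 9 members, and some have 2 starts, giving 12 windows. A GC box on either strand was present in 7 of these 12, or 58.3%, against 32.7% of all windows. GGAATG, letters that TEAD factors bind, and CAAGTG, letters that NKX2-1 binds, were in 0 of the 12 windows on either strand, against 12.6% and 11.6% of all windows. TATAAA was in 1 of the 12, in the first Cav1 window, and in 12.4% of all. A match is a description of letters, and its absence says nothing of the factor.

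Aqp5 (chr15:99590782-99594829, plus strand) encodes aquaporin 5, the water channel of the apical membrane of alveolar type 1 cells, which airway glands also use. The level of Aqp5 was 28.9 and 13.5 FPKM in Control 1 and 2, and 41.1 and 64.8 FPKM in Shh-Stk11 1 and 2. Both Shh-Stk11 libraries were above both Control libraries, and within each group the values differed widely. The Control mean was 21.2 ± 10.9 FPKM and the Shh-Stk11 mean 53.0 ± 16.7 FPKM (SD, n = 2), and the log2 fold change was 1.38 (95% interval 0.49 to 2.27). The limma adjusted p was 0.131, and it lay between 0.107 and 0.336 over 15 alternative fits, in all of which the value was higher in Shh-Stk11 lungs. The fold change was 1.92 without Control 1 and 0.83 without Control 2.

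Of 10 other aquaporin genes in the table, 4 had enough signal to be tested and 3 (Aqp6, Aqp8, Aqp12) were listed at 0 in every library. None of the 4 passed the threshold in limma, 3 had negative log2 fold changes, and 1 of them, Aqp4, was lower at an unadjusted p under 0.05. Aqp4, a water channel of the basolateral membrane of airway epithelium, was at 2.25 and 2.44 FPKM in Control and at 1.31 and 0.906 FPKM in Shh-Stk11 libraries (log2 fold change -1.04, limma adjusted p = 0.0953). Its groups did not overlap, on the side opposite to Aqp5. Aqp3 had a log2 fold change of -0.67 (limma adjusted p = 0.594), which was 0.05 without Shh-Stk11 1. Aqp1, the water channel of capillary endothelium, had one of 0.23 (limma adjusted p = 0.614) with overlapping groups.

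Ager (chr17:34597862-34600936, plus strand) encodes RAGE, a receptor that alveolar type 1 cells carry on their basolateral membrane. It was at 640 and 528 FPKM in Control 1 and 2, and at 320 and 470 FPKM in Shh-Stk11 1 and 2. Both Shh-Stk11 values were below both Control values, and Shh-Stk11 1 was the lowest by a wide margin. The means were 584 ± 79.9 and 395 ± 106 FPKM (SD, n = 2), with a log2 fold change of -0.58 (95% interval -1.14 to -0.03, limma adjusted p = 0.3). Of 9 genes for RAGE ligands and signalling partners none passed the threshold in limma, and 1, S100a9, was lower at an unadjusted p under 0.05. By sign 5 were higher and 4 lower (median 0.001). The calgranulin gene S100a9 had a log2 fold change of -0.66 (limma adjusted p = 0.127), and S100a6 one of -0.44 (limma adjusted p = 0.429). For both, the Shh-Stk11 values lay below the Control values, whereas those of S100a8 overlapped (log2 fold change -0.38, limma adjusted p = 0.559).

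Hopx (chr5:77086988-77115121, minus strand) encodes a small homeodomain protein that does not bind DNA and that marks alveolar type 1 cells and the developing heart. It was at 580 and 510 FPKM in Control 1 and 2, and at 292 and 462 FPKM in Shh-Stk11 1 and 2. As with Ager, Shh-Stk11 1 was far below the rest and Shh-Stk11 2 only a little below Control 2. The means were 545 ± 49.8 and 377 ± 120 FPKM (SD, n = 2), and the log2 fold change of -0.57 had a 95% interval that included 0 (-1.15 to 0.02, limma adjusted p = 0.347). Without Shh-Stk11 1 it was -0.23 and without Shh-Stk11 2 -0.90, and for Ager -0.31 and -0.86. The antisense gene Hopxos shares 412 exon bases with Hopx in GENCODE M21, and the strand setting of the quantification is not given in the sources used here, so reads of the pair cannot be told apart.

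Rtkn2 (chr10:67979570-68059740, plus strand) encodes rhotekin 2, which is enriched in alveolar type 1 cells. Levels were 9.36 and 4.56 FPKM in Control 1 and 2, and 3.16 and 3.82 FPKM in Shh-Stk11 1 and 2. Control 1 stood apart at the top, and the other 3 libraries were close together. The log2 fold change was -0.89 (95% interval -1.67 to -0.11, limma adjusted p = 0.26), and it ran from -0.38 without Control 1 to -1.40 without Control 2. Its antisense neighbour Gm16212 shares 216 exon bases with it, with the same limit as for Hopx.

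Clic5 (chr17:44188584-44280172, plus strand) encodes a protein of the chloride intracellular channel family that associates with ezrin and cortical actin. It was at 123 and 72.3 FPKM in Control 1 and 2, and at 58.7 and 88.7 FPKM in Shh-Stk11 1 and 2. The groups overlapped, with the Shh-Stk11 values on either side of Control 2. The log2 fold change was -0.39 (95% interval -1.09 to 0.32, limma adjusted p = 0.594). It was -0.002 without Control 1 and -0.09 without Shh-Stk11 1, but -0.77 without Control 2 and -0.68 without Shh-Stk11 2.

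Akap5 (chr12:76324891-76334153, plus strand) encodes a scaffold that anchors protein kinase A and calcineurin at membranes. It was at 54.2, 42.5, 45.0 and 48.1 FPKM in Control 1, Control 2, Shh-Stk11 1 and Shh-Stk11 2. Both Shh-Stk11 values fell inside the range of the Control values. The log2 fold change was -0.04 (95% interval -0.41 to 0.32, limma adjusted p = 0.923), and 0.02 with quantile normalization. None of its 10 tested partners passed the threshold in limma, and 2 were higher and 1 lower at an unadjusted p under 0.05. By sign 6 were higher and 4 lower (median 0.04). They included the calcineurin subunit gene Ppp3ca (0.48, limma adjusted p = 0.153), the kinase subunit gene Prkar2a (0.38, limma adjusted p = 0.255) and the adenylyl cyclase gene Adcy5 (-0.47, limma adjusted p = 0.357).

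Emp2 (chr16:10281749-10313968, minus strand) encodes a membrane protein with several transmembrane segments, of the PMP22 family, that is abundant in alveolar type 1 cells. It was at 320, 248, 264 and 346 FPKM in Control 1, Control 2, Shh-Stk11 1 and Shh-Stk11 2. The groups overlapped throughout, and the highest library was Shh-Stk11 2. The log2 fold change was 0.10 (95% interval -0.39 to 0.59, limma adjusted p = 0.857). Of 8 tested paralogues of Clic5, Rtkn2 and Emp2 none passed the threshold in limma, and 1, Clic6, was higher at an unadjusted p under 0.05. By sign 4 were higher and 4 lower (median -0.10). Clic6 (0.42, limma adjusted p = 0.232) and Clic3 (-0.42, limma adjusted p = 0.334) had the largest log2 fold changes, in opposite directions, followed by Emp3 (-0.23, limma adjusted p = 0.528).

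Vegfa (chr17:46016993-46032369, minus strand) encodes the growth factor through which the alveolar epithelium acts on capillary endothelium. It was at 130 and 117 FPKM in Control 1 and 2, and at 95.7 and 125 FPKM in Shh-Stk11 1 and 2. Only Shh-Stk11 1 was low, and Shh-Stk11 2 lay between the Control values. The log2 fold change was -0.17 (95% interval -0.58 to 0.23, limma adjusted p = 0.679). Among 9 tested genes of other VEGF family ligands and the receptors none passed the threshold in limma, and 3 were lower at an unadjusted p under 0.05. By sign 2 were higher and 7 lower (median -0.19). Those 3 were the ligand genes Pgf (-0.39, limma adjusted p = 0.296), Vegfb (-0.36, limma adjusted p = 0.271) and Vegfc (-0.34, limma adjusted p = 0.321), which had the largest log2 fold changes. For all 3, and unlike Vegfa, each Shh-Stk11 value was below each Control value.

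Cav1 (chr6:17306335-17341452, plus strand) encodes caveolin 1, the coat protein of caveolae, which alveolar type 1 cells and endothelial cells both carry in large number. It was at 691 and 570 FPKM in Control 1 and 2, and at 422 and 495 FPKM in Shh-Stk11 1 and 2. The groups were apart, with Shh-Stk11 1 the lowest. The means were 631 ± 85.5 and 458 ± 51.8 FPKM (SD, n = 2), and the log2 fold change was -0.46 (95% interval -0.91 to -0.01, limma adjusted p = 0.316). None of 8 other caveola genes passed the threshold in limma, and 0 did so at an unadjusted p under 0.05. By sign 2 were higher and 6 lower (median -0.17). Cav2, the partner of caveolin 1 in the coat, had a log2 fold change of -0.32 (limma adjusted p = 0.382), Ehd2, an ATPase of the caveola neck, one of -0.28 (limma adjusted p = 0.478), and the cavin gene Ptrf one of -0.26 (limma adjusted p = 0.572). For these 3 genes too the Shh-Stk11 values were both below the Control values.

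**Figure D2:**
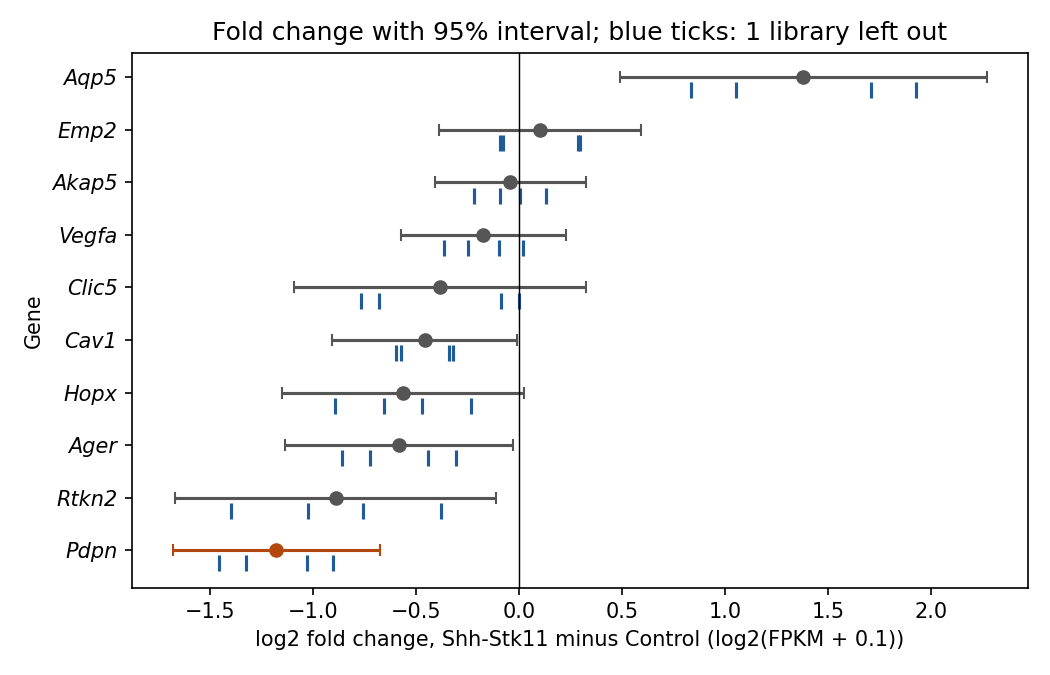
Log2 fold change (Shh-Stk11 minus Control, on log2(FPKM + 0.1)) of the 10 alveolar type 1 genes, with points for the limma estimate, bars for its 95% interval and blue ticks for the fold change with 1 library left out. Pdpn, in orange at -1.18, was the member called, Aqp5 was at 1.38, and the ticks of Akap5, Emp2 and Vegfa fell on both sides of 0.

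Within each genotype the members varied together. All 10 were higher in Control 1 than in Control 2, and all 10 were higher in Shh-Stk11 2 than in Shh-Stk11 1. Both held for 25.9% of all tested genes. The difference between replicates was also large for these genes, with a median absolute log2 difference of 0.32 in Control and 0.47 in Shh-Stk11 against 0.18 and 0.16 over all tested genes. Control 1 was the highest library for 8 members, against 24.7% of all tested genes, and Shh-Stk11 1 the lowest for 7, against 33.8%. The summed FPKM of the members were 2650 and 2170 in Control 1 and 2, and 1570 and 2140 in Shh-Stk11 1 and 2, so that the sums of Control 2 and Shh-Stk11 2 were close. The same order in both genotypes was seen for 17 of 27 other alveolar type 1 genes, for 10 of 15 alveolar type 2 and distal genes and for 1 of 12 general epithelial genes. Outside the epithelium it was seen for 8 of 12 blood endothelial genes and 2 of 10 mesenchymal genes, and among caveola genes for 5 of 8. The part of library depth, which was highest in Control 1, in this order was not tested.

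A wider list of alveolar type 1 genes held 1 further call. Of 30 symbols listed, 28 were in the table and 27 were tested. By sign 11 were higher and 16 lower (median log2 fold change -0.08), and 4 were higher and 5 lower at an unadjusted p under 0.05 in limma. The median was 0.01 with quantile normalization, 0.03 without Control 1 and -0.19 without Control 2. Spock2, which encodes the matrix proteoglycan testican 2, was the gene called among them. It was at 17.3 and 11.1 FPKM in Control and at 4.53 and 5.30 FPKM in Shh-Stk11 libraries. It fell, with a log2 fold change of -1.48 (limma adjusted p = 0.0317). Leaving out any 1 of the libraries ended this call, with adjusted p of 0.142 without Control 1, 0.0691 without Control 2, 0.0978 without Shh-Stk11 1 and 0.064 without Shh-Stk11 2. The call was also lost with the replicate block (0.134, and 0.108 once the trend on length and GC content was also removed), with no filter (0.121) and without the trend in eBayes (0.0584). Cryab was also called at a pseudocount of 0.01 or a filter of 5 FPKM. Igfbp2, an insulin-like growth factor binding protein of mature alveolar type 1 cells, had a log2 fold change of -0.99 (limma adjusted p = 0.123) and the small heat shock protein gene Cryab one of -0.91 (limma adjusted p = 0.0537). For both, the groups were apart on the lower side, as for Pdpn. None of 8 genes of the YAP/TAZ, TEAD, GATA6 and KLF5 regulators of alveolar differentiation passed the threshold in limma, and 1, Tead4, was lower at an unadjusted p under 0.05. By sign 2 were higher and 6 lower (median -0.16). Tead4 (-0.43, limma adjusted p = 0.222), Klf5 (0.26, limma adjusted p = 0.581) and Tead1 (0.24, limma adjusted p = 0.539) had the largest log2 fold changes.

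The neighbouring alveolar lineage was likewise mixed. Of 15 alveolar type 2 and distal tip genes none was called in limma, and 2 were higher and 1 lower at an unadjusted p under 0.05. By sign 7 were higher and 8 lower (median -0.08). This median was 0.20 without Control 1, 0.15 without Shh-Stk11 1 and -0.29 without Control 2. Sftpd, for surfactant protein D, was at 76.0 and 33.6 FPKM in Control and at 143 and 301 FPKM in Shh-Stk11 libraries (log2 fold change 2.04, limma adjusted p = 0.0853). In its order over the libraries it resembled Aqp5, with Control 2 lowest and Shh-Stk11 2 highest. The sodium-phosphate transporter gene Slc34a2 (-0.98, limma adjusted p = 0.31) and the surfactant gene Sftpc (-0.76, limma adjusted p = 0.447) had both Shh-Stk11 values below both Control values.

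Because whole lung mixes epithelium with other tissue, the members were also set against 12 genes that most lung epithelial cells express. Of these, 11 had positive log2 fold changes, with a median of 0.21 that lay between 0.181 and 0.355 over 15 alternatives. In 8 of the 12 both Shh-Stk11 values were above both Control values, against 19.2% of all tested genes, and in 1 both were below. None passed the threshold in limma, and 3 were higher at an unadjusted p under 0.05. Those 3 were E-cadherin (Cdh1, 0.49, limma adjusted p = 0.184), Foxa2 (0.38, limma adjusted p = 0.19) and Cldn7 (0.37, limma adjusted p = 0.229). The mean log2 level of the members stood above that of the 12 genes by 1.27 and 0.75 in Control 1 and 2, and by 0.32 and 0.72 in Shh-Stk11 1 and 2. Control 2 and Shh-Stk11 2 were nearly level. The difference between the group means was -0.49 on the log2 scale, and it was -0.34 for the other alveolar type 1 genes and -0.15 for alveolar type 2 and distal genes. It was -0.54 for endothelial, -0.52 for mesothelial, -0.50 for mesenchymal and -0.27 for lymphatic endothelial genes. Relative to the epithelial genes Pdpn differed by -1.39, Rtkn2 by -1.10, Ager by -0.79 and Hopx by -0.78. At the other end Emp2 differed by -0.11 and Aqp5 by 1.17.

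**Figure D3:**
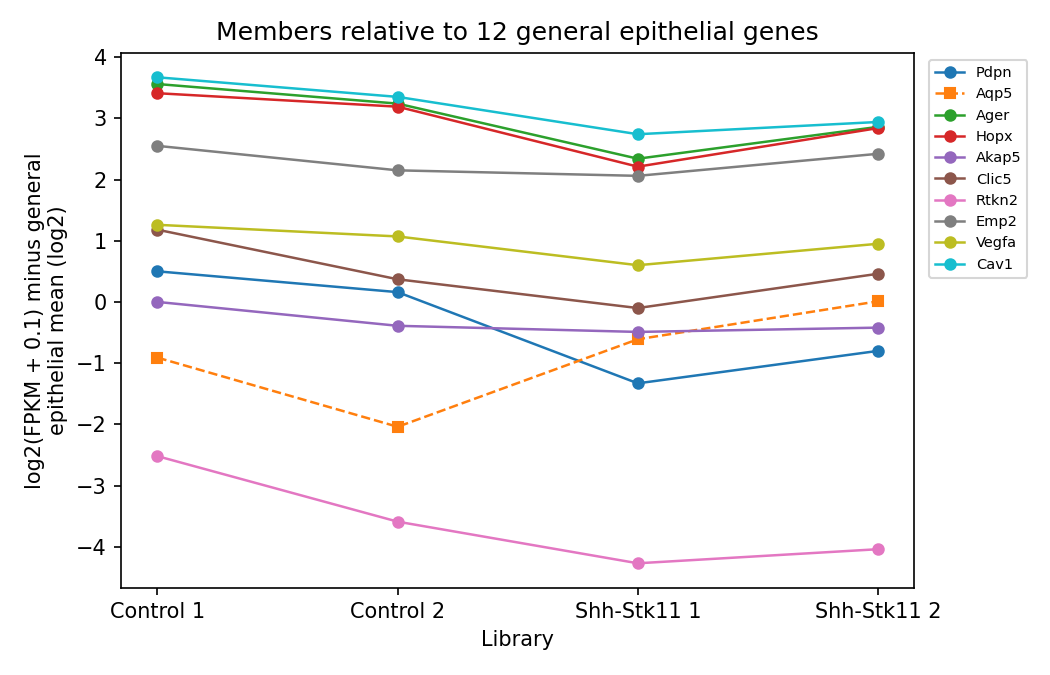
Log2(FPKM + 0.1) of each alveolar type 1 gene minus the mean of 12 general epithelial genes, in the 4 libraries, with 1 line per gene. Pdpn went from 0.50 and 0.16 in Control to -1.33 and -0.80 in Shh-Stk11 libraries, and Aqp5, dashed, from -0.91 and -2.04 to -0.61 and 0.01.

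Markers of the other cells that carry these proteins were lower in Shh-Stk11 lungs in many cases. All 12 blood endothelial genes had negative log2 fold changes (median -0.32), as did 58.3% of all tested genes. For 11 of the 12 the groups were apart on the lower side, against 27.6% of all tested genes. None passed the threshold in limma, and 6 were lower at an unadjusted p under 0.05. They were led by Cldn5 (-0.65, limma adjusted p = 0.0832), Esam (-0.41, limma adjusted p = 0.181) and Emcn (-0.38, limma adjusted p = 0.23). Their summed FPKM were 830 and 734 in Control and 579 and 621 in Shh-Stk11 libraries, the same side as Cav1. Of 7 tested mesothelial genes 5 were lower by sign (median -0.22), 0 were called in limma and 3 were lower at an unadjusted p under 0.05, with summed FPKM of 401 and 393 in Control and 319 and 425 in Shh-Stk11 libraries. Most of that sum was Krt19, a keratin, and without it the sums were 112 and 92.2 in Control and 56.0 and 73.7 in Shh-Stk11 libraries. Msln (-0.83, limma adjusted p = 0.123), Upk1b (-0.60, limma adjusted p = 0.215) and Upk3b (-0.43, limma adjusted p = 0.162) were apart on the same side as Pdpn.

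Of 5 tested lymphatic endothelial genes 3 were lower by sign (median -0.19), and 0 were called in limma or had an unadjusted p under 0.05. The median was -0.003 without Control 1, -0.06 without Shh-Stk11 2 and -0.31 without Control 2. The defining chemokine gene Ccl21a was listed at 0 in every library. Their summed FPKM were 83.8 and 77.0 in Control and 62.3 and 71.0 in Shh-Stk11 libraries. Lyve1 had a log2 fold change of -0.31 (limma adjusted p = 0.376), Prox1 one of 0.31 (limma adjusted p = 0.7) and Reln one of -0.24 (limma adjusted p = 0.794). All 10 mesenchymal genes had negative log2 fold changes (median -0.22), and for 6 of them the groups were apart. Of the 10, 0 were called in limma and 4 were lower at an unadjusted p under 0.05. Among them were Wnt2 (-0.67, limma adjusted p = 0.0869), Tcf21 (-0.51, limma adjusted p = 0.297) and Tbx4 (-0.45, limma adjusted p = 0.144). Their summed FPKM ran from 1010 to 1150 in Control and from 852 to 928 in Shh-Stk11 libraries. The 6 tested heart muscle genes, of interest for Hopx, all had negative log2 fold changes and overlapping groups (median -0.90), and 0 were called in limma or had an unadjusted p under 0.05. The median ran from -0.20 without Shh-Stk11 2 and -0.30 without Control 2 to -1.37 without Control 1 and -1.59 without Shh-Stk11 1, and in the last fit 1 gene, Myh6, was called (limma adjusted p = 0.0162). Their summed FPKM were 110 and 244 in Control and 139 and 53.9 in Shh-Stk11 libraries. Myh6 (-1.18, limma adjusted p = 0.441), Myl7 (-1.09, limma adjusted p = 0.481) and Tnni3 (-0.94, limma adjusted p = 0.493) led them. Their highest library was Control 2 and their lowest Shh-Stk11 2, an order that Hopx did not follow. The part of these other cells in the values of Pdpn, Cav1 and the rest was not tested.

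**Figure D4:**
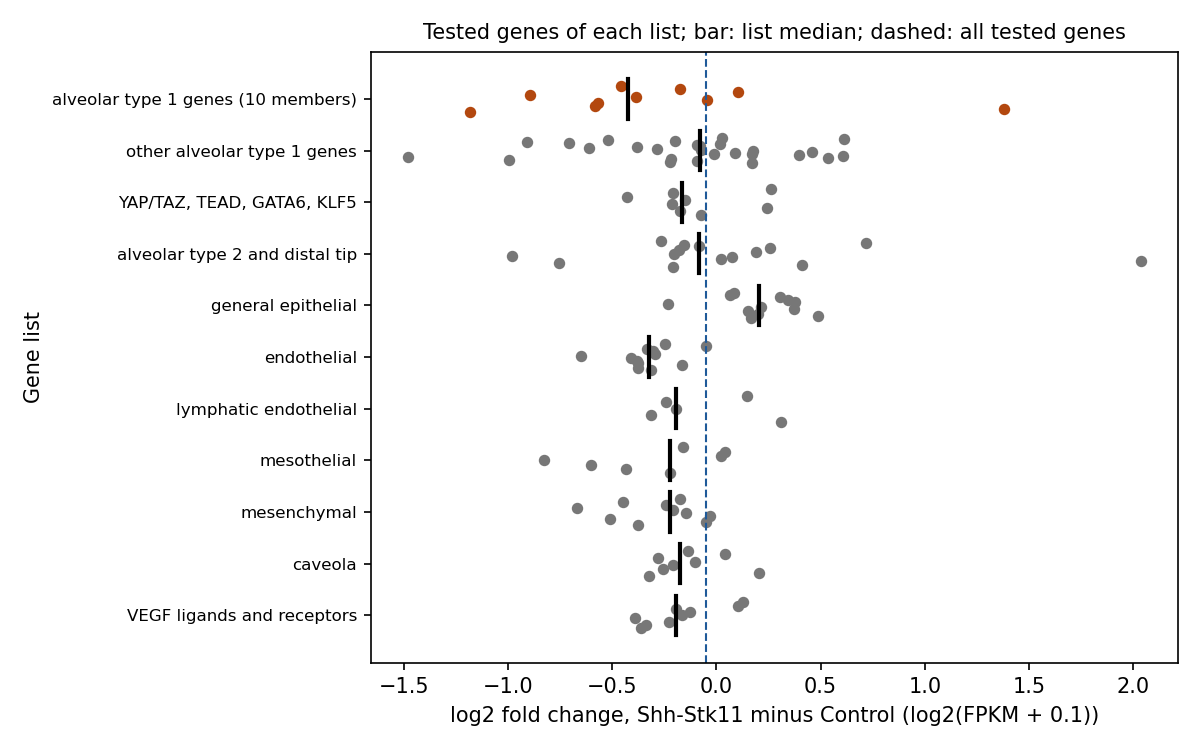
Log2 fold change (Shh-Stk11 minus Control) of each tested gene in 11 lists, with a bar at the median of the list and a dashed line at the median of all tested genes (-0.05). The 10 members had a median of -0.42 and ran from Pdpn at -1.18 to Aqp5 at 1.38, general epithelial genes sat mostly above 0 and blood endothelial genes all below it.

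Gene length and GC content moved with the fold change over the whole table. The median log2 fold change was -0.19 in the 1364 shortest genes and 0.19 in the 1364 longest. It was 0.20 in the 1364 genes of lowest GC content and -0.16 in the 1364 of highest. Pdpn (longest transcript 1817 bases), Ager (1876 bases) and Hopx (1261 bases) are short, and so is Aqp5 (1797 bases), whose log2 fold change was positive. With the tested genes in 10 groups by length, Hopx was in group 1, Pdpn and Aqp5 in group 2 and Ager in group 3. By GC content Ager and Aqp5 were both in group 10, the highest, with Pdpn in group 5 and Hopx in group 4. With the trend on length and GC content removed, Pdpn had a log2 fold change of -1.06 (limma adjusted p = 0.0857), Ager of -0.40 and Hopx of -0.46. The same step moved Aqp5 to 1.61 (limma adjusted p = 0.203), Rtkn2 to -0.92 and Cav1 to -0.48.

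The profile of Pdpn over the 4 libraries was compared with that of every tested gene, by Euclidean distance on log2 values centred per gene. Of the members Ager was the nearest, at a distance of 0.60 and rank 226, followed by Rtkn2 (rank 258) and Hopx (rank 261), while Emp2 stood at rank 7920 and Aqp5 at rank 13599. The nearest genes of all were Asz1 (0.139), Gipc2 (0.153), Prkag3 (0.159) and Igsf1 (0.164). The genes nearest to the mean profile of the 10 members were Ptger2 (0.037), Rnf144b (0.04), Hist1h1b (0.054), Mylip (0.057) and Lrrc3b (0.06), all with Control 1 highest and Shh-Stk11 1 lowest. With 4 libraries, many genes lie near any profile.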

How the data were processed

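RNA of whole E16.5 lungs was measured in 2 Control and 2 Shh-Stk11 libraries. The number of embryos in each library is not given in the sources used here. Per the methods of the study, single-end reads were sequenced and the libraries are biological replicates. The authors deposited FPKM values per gene. The submitters' processing notes name TopHat2 2.0.13 and Cufflinks 2.2.1 and the builds GRCm38 and mm9, and any scaling between libraries is not given in the sources used here. All value columns matched a library, and 0 were left out.

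Values were analysed on log2(FPKM + 0.1), which understates the change of low genes. Genes whose mean reached 0.5 FPKM were fitted with genotype as the only term in limma 3.58.1 (R 4.3.3, eBayes with a trend), two-sided, with Benjamini-Hochberg adjustment over the 13770 genes and a threshold of 0.05. Means carry the SD over n = 2 libraries.

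Symbols were matched to GENCODE M21 (GRCm38), 20242 directly and 1918 through synonyms. Depth was estimated from 1721 low genes, of which 78.0% had values that were whole multiples of 1 step, within 0.05 of a step. It covers counting error only and contains any scaling by the authors. Markers and lists were described by counts and medians.

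The members and lists were chosen with earlier results of these data known. The text names every member and, from each other list, genes past the threshold and the 3 largest absolute log2 fold changes, together with the 5 genes nearest in profile to Pdpn and to the mean of the members, and some items are not reported here. Aqp6, Aqp8, Aqp12, Ccl21a and Krt19 were named after their values were seen, and Stk11 and Ddx3y are named as checks of the labels. Alternatives were other pseudocounts, filters and scalings, eBayes without the trend, a replicate block, removal of a length and GC trend, and each library left out.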

Additional observations from a re-analysis of the deposited data

How the results depend on the processing

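Over all tested genes 313 passed the threshold. The count was 200 with a filter of 5 FPKM (110 higher and 90 lower, against 135 and 178), 61 with no filter, 186 once the trend on length and GC content was removed, and between 38 and 191 with 1 library left out. With the replicate number as a block it was 13, and with that block and the trend removed 56. The deviations of Control 1 and Shh-Stk11 1 from their group means correlated at -0.114 over the tested genes. With 2 libraries a group the other pair only mirrors this one, so the value cannot tell whether the numbers paired the samples. A block on the crossed numbers, chosen after seeing the data, gave 675 genes and 2 members.

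One member was called, and 0 with a pseudocount of 1, a filter of 0.1 FPKM, no filter, quantile normalization, median-ratio scaling, eBayes without the trend, the replicate block, or the length and GC trend removed with or without the block. With 1 library left out the count was 0 to 1. These fits leave 1 library in a group, which is assumed to vary like the others. Pdpn stayed lower in each. Its log2 fold change was -1.156 with a pseudocount of 1 (adjusted p in limma 0.0504), -1.18 with a filter of 0.1 FPKM (0.0521), no filter (0.139), no trend (0.0882) or the replicate block (0.169), -1.13 with quantile normalization (0.0761), -1.14 with median-ratio scaling (0.0519), and -1.06 without the trend on length and GC content (0.0857, and 0.185 with the block). It ran from -1.46 to -0.90 with 1 library left out. The cause was not tested.

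Of the other members, Akap5 changed sign with quantile normalization (0.022) and ran from -0.22 to 0.13 with 1 library left out, Emp2 from -0.092 to 0.296 and Vegfa from -0.366 to 0.017. Removing the length and GC trend moved Akap5 from -0.044 to -0.246. Aqp5, Ager, Hopx, Clic5, Rtkn2 and Cav1 kept their sign and stayed uncalled in 15 alternatives each. The median over the members was -0.42, stayed negative in all 15, and ran from -0.63 to -0.16 with 1 library left out. The medians of the other alveolar type 1, alveolar type 2, podoplanin, RAGE, AKAP5, paralogue and aquaporin lists each changed sign in at least 1 alternative. Over 15 alternatives the median ran from -0.19 to -0.08 for the regulators, from -0.31 to -0.08 for the VEGF genes, from -0.28 to -0.045 for the caveola genes, from -0.42 to -0.23 for the blood endothelial, from -0.43 to -0.14 for the mesothelial, from -0.34 to -0.15 for the mesenchymal and from 0.18 to 0.35 for the general epithelial genes. Emp3 was at 0.036 after removing the length and GC trend, with or without the block. With 1 library left out, Aqp3 ran from -1.393 to 0.047, S100a8 from -0.809 to 0.039 and Reln from -0.495 to 0.013. Scalings moved the median of all genes by under 0.1.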
